A study of Caenorhabditis elegans with 24 samples.

Results

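The *sdz* genes are named as SKN-1 dependent zygotic transcripts, genes first recognised because early *C. elegans* embryos need the transcription factor SKN-1 to turn them on. Every row of the deposited table whose symbol is *sdz-* followed by a number was taken, which gave 32 genes of the 21982 in the table. All 32 are annotated as protein coding in the WBcel235 genome. Their levels were followed in whole day 3 adults after degradation of RAGA-1, a Rag GTPase that activates the growth regulator mTORC1, either in somatic tissues or in neurons.

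RAGA-1::AID Somatic animals (strain WBM1438) carry *raga-1(wbm40)*, in which the degron and EmGFP sit on the endogenous gene, and *ieSi57*, in which the *eft-3* promoter drives the plant F-box protein TIR1. RAGA-1::AID Neuronal animals (strain WBM1250) carry the same *raga-1* allele and *wbmIs83*, in which the *rab-3* promoter drives TIR1 in neurons. Wild type animals (N2 Bristol) carry neither the degron nor TIR1. In the auxin-inducible degron (AID) system, auxin makes TIR1 mark the tagged protein for destruction, so the TIR1 promoter sets the tissue. On day 1 of adulthood each strain was moved to auxin plates (0.15 mM) or to control plates that held only the solvent, ethanol, and it was harvested on day 3, with about 400 worms in a sample. This gave 6 groups of 4 biological replicates, each started, by the study's methods, from its own thaw and taken on its own day. Both AID strains without auxin therefore carry the tagged *raga-1* and TIR1, and each strain was compared with itself on auxin. From GFP signal, the study reported some loss of RAGA-1 in the RAGA-1::AID Somatic strain even without auxin. It found no significant whole-body loss in the RAGA-1::AID Neuronal strain, with or without auxin. The study gave tagged RAGA-1 left outside neurons as the likely reason, so this signal cannot show whether neurons lost RAGA-1 without auxin. Those animals were imaged on day 1 of adulthood after growth on the plates from hatch. Because of the loss reported in its strain, the RAGA-1::AID Somatic no auxin group may be partly depleted, both as a control for auxin and beside wild type. For the RAGA-1::AID Neuronal no auxin group this is not known.

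SKN-1 is loaded into the egg by the mother and specifies the blastomere that gives rise to the gut and much of the mesoderm, through the GATA factors MED-1 and MED-2 and then END-1 and END-3. In the adult, SKN-1 acts in the intestine and in the ASI neurons, where it turns on detoxification genes such as *gst-4* and *gcs-1*. The p38 kinase PMK-1 activates it and WDR-23 directs its degradation. A whole adult hermaphrodite holds embryos in its uterus, and RNA from mother, germline and embryos is measured together. In such samples, a change in the number of embryos, in their stage or in the RNA per cell cannot be told apart. Functions of single *sdz* proteins are not annotated in the tables used here, so the genes are described by their levels.

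Values are normalized counts, that is, gene counts divided by 1 size factor for each library. The libraries held 16982857 to 41671106 recovered reads. The top 10 genes of a library made up 21.6% to 25% of its normalized counts in the RAGA-1::AID Somatic auxin libraries, against 13.7% to 18% in the other 20 libraries. The mRNA of *raga-1*, the targeted gene, averaged 1494 ± 93.7 in RAGA-1::AID Somatic auxin and 1687 ± 44.7 without auxin (SD, n = 4 each). It averaged 1617 ± 48.1 in RAGA-1::AID Neuronal auxin and 1675 ± 54.9 without auxin, and 2842 ± 66.6 in wild type auxin and 2838 ± 174 without auxin. The degron acts on the protein, so these mRNA levels do not measure the depletion. Defining markers of neurons, muscle, intestine, epidermis and germline were all read in each group, none of them at 0.

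Most *sdz* genes were weakly expressed in these adults, and 1 of them was not. In RAGA-1::AID Somatic auxin animals, *sdz-27* stood at 1130 ± 54.7 normalized counts per kilobase of exon, followed by *sdz-28* at 226 ± 67.3, *sdz-25* at 202 ± 44.7, *sdz-14* at 119 ± 20.7 and *sdz-30* at 113 ± 26.9 (SD, n = 4). In the same strain without auxin, the order was *sdz-27* at 692 ± 17.4 per kilobase, *sdz-36* at 94.4 ± 27.4, *sdz-28* at 91.6 ± 47.7, *sdz-6* at 67.1 ± 42.6 and *sdz-25* at 59.4 ± 16.1. Apart from the lead of *sdz-27* and the step between *sdz-25* and *sdz-14* with auxin, neighbours in these orders differed by less than the SD of the larger. In wild type without auxin, *sdz-27* again led at 698 ± 59.2 per kilobase, ahead of *sdz-6* at 111 ± 47.4 and *sdz-28* at 98.2 ± 26.5. Of the 32 genes, 27 reached a normalized count of 10 in 4 or more of the 24 libraries and were tested. The other 5, *sdz-13*, *sdz-20*, *sdz-23*, *sdz-32* and *sdz-35*, stayed below that.

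The genes are unevenly placed in the genome. Chromosome II holds 15 of the 32 (46.9%), against 17.3% of the protein-coding genes of the table, and 12 of them (37.5%) lie before position 4000000 of that chromosome, against 5.05% of protein-coding genes. The others are spread over chromosomes III (5), V (5), IV (4), I (2) and X (1). The closest pair, *sdz-10* (chrII:2771080-2772266) and *sdz-9* (chrII:2772369-2773634), lies on the minus strand with 102 bases between the genes. *sdz-27* lies at chrIV:11187029-11188264. A second gene also named *sdz-25* (chrIV:8405022-8406611, minus strand) has the same exon lengths, 92 and 898 bases, as the tabled one (chrIV:8410578-8412167, plus strand). That second gene was not analysed here and the sequences were not compared. If they are near-identical, the counting could split reads between them, so the level of *sdz-25* is uncertain. *sdz-1*, *sdz-14*, *sdz-24* and *sdz-33* each overlap a gene on the opposite strand. The libraries were made strand-specific with dUTP, but no source used here gives the strand options of the counting, so these levels are uncertain too. *sdz-13* overlaps a pseudogene on its own strand, which makes its level uncertain whatever the strand setting.

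The summed level of the 32 genes separated the auxin-treated AID strains from their controls. It was 2663, 2007, 2321 and 2816 normalized counts in the 4 RAGA-1::AID Somatic auxin libraries, against 1070, 1028, 1113 and 1366 without auxin. The RAGA-1::AID Neuronal sums were 1654, 1790, 1793 and 1784 with auxin, against 1314, 1323, 1405 and 1410 without. Neither pair of groups overlapped. Wild type sums were 1180, 1367, 1216 and 1156 with auxin, against 1038, 1397, 1271 and 1162 without, and these groups overlapped. Since *sdz-27* supplies much of the sum, it was also taken without that gene, which gave 1269 to 1995 in RAGA-1::AID Somatic auxin and 533 to 896 without auxin, again with no overlap. At least 1 read was found for all 32 genes in each of the 4 RAGA-1::AID Somatic auxin libraries, and for 28 to 31 genes in each of the other 20 libraries.

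**Figure D1:**
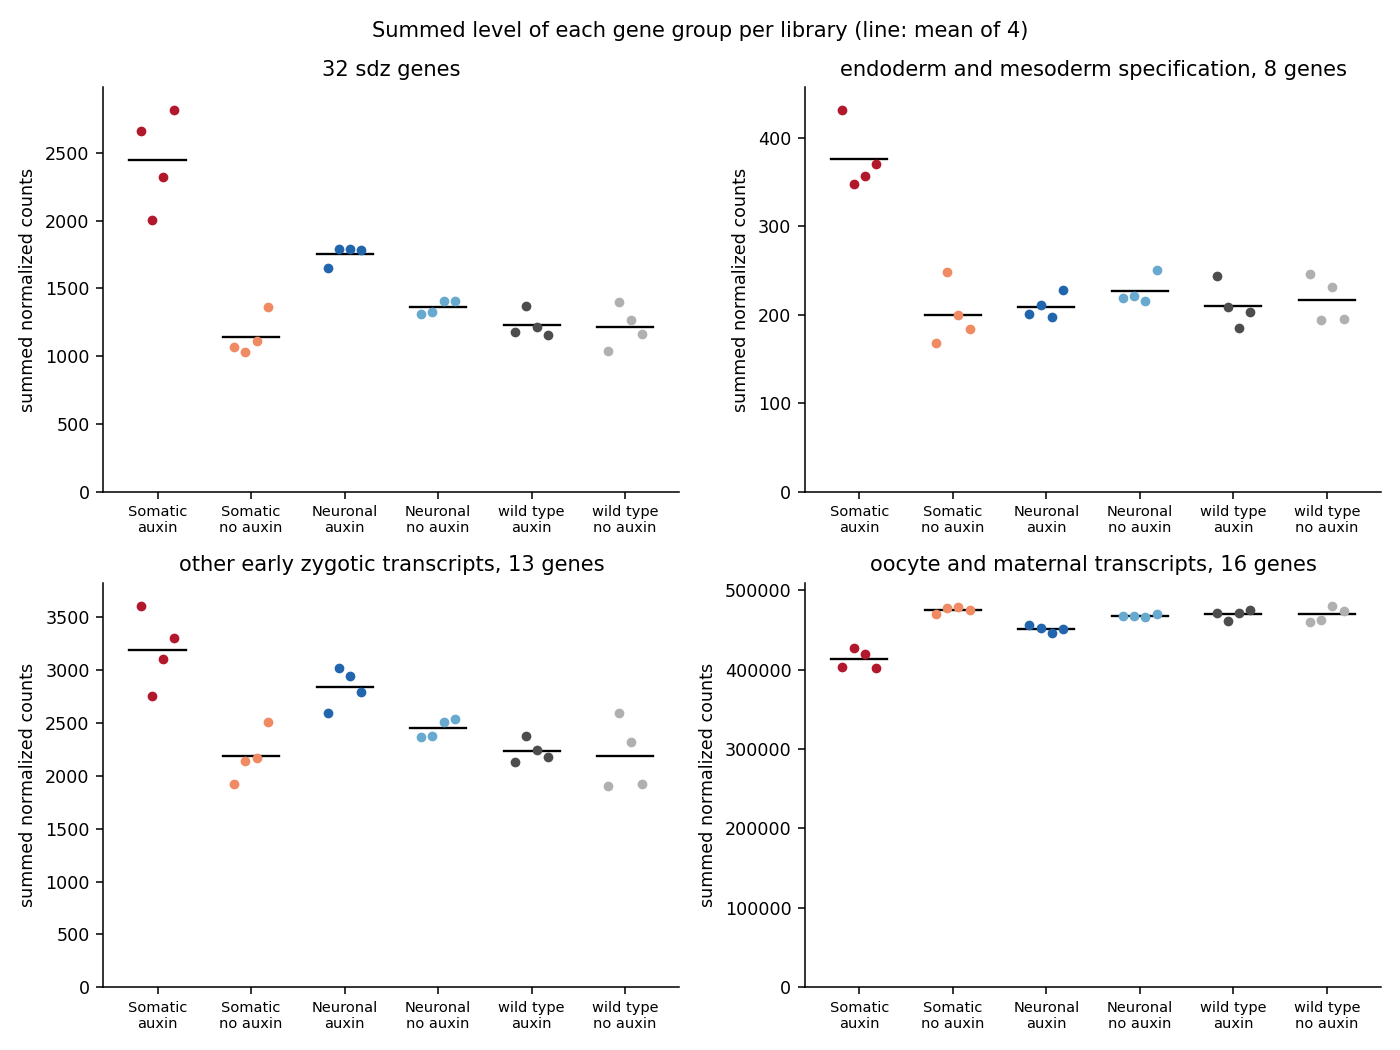
Summed normalized counts per library (y axis, linear from 0) for the 32 sdz genes and 3 lists of embryo or oocyte transcripts in the 6 groups (x axis); each dot is a library and each line the mean of 4. The sdz sum is 2007 to 2816 in RAGA-1::AID Somatic auxin and 1028 to 1366 without auxin, while the oocyte and maternal sum is lower in RAGA-1::AID Somatic auxin than in every other group.

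After somatic AID of RAGA-1, *sdz* genes rose broadly. Of the 27 tested genes, 16 were higher in RAGA-1::AID Somatic auxin than in RAGA-1::AID Somatic no auxin and none was lower (limma, Benjamini-Hochberg adjusted p of 0.01 or less over 13150 genes). Among all tested genes 16% were called higher and 19.6% lower. For the 27 genes the log2 fold change had a median of 1.14, against 0.01 over all tested genes, and 24 of 27 lay above 0, against 51.1% of all genes. An unadjusted limma p under 0.05 was found for 22 of 27, against 54.5% of all genes. In 16 genes, the called ones without *sdz-28* and with *sdz-15*, all 4 auxin libraries lay above all 4 controls, and in 0 below, beside 17.2% above and 20.5% below over all genes. The study had singled out the *sdz* class from these samples, so this count is not independent evidence of the direction. The 16 genes were *sdz-1*, *sdz-4*, *sdz-5*, *sdz-9*, *sdz-10*, *sdz-11*, *sdz-14*, *sdz-16*, *sdz-18*, *sdz-21*, *sdz-25*, *sdz-26*, *sdz-27*, *sdz-28*, *sdz-30* and *sdz-33*. edgeR and DESeq2 on recovered reads each called the same 16, and all 16 remained when any 1 of the 8 libraries was left out. With replicates 2 and 3 alone 12 were called, all of them among the 16.

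*sdz-30* had the largest rise among the genes that were well above the filter. It read 228, 130.0, 169 and 211 in RAGA-1::AID Somatic auxin, against 31.8, 30.5, 29.9 and 29.7 without auxin. The 4 control libraries were close to each other and every auxin library was far above them. Its log2 fold change was 2.53 ± 0.22 (SE), with a limma adjusted p of 1.7e-08.

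*sdz-27*, the most abundant member, showed the smallest of the 16 rises and the tightest replicates. Its level was 811, 738, 813 and 821 in RAGA-1::AID Somatic auxin, against 495, 495, 490.0 and 469 without auxin. The groups were far apart, with replicate 2 the lowest auxin library. The log2 fold change was 0.71 ± 0.06 (SE), limma adjusted p = 9.4e-09.

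*sdz-25* had 211, 156, 176 and 257 in RAGA-1::AID Somatic auxin, against 54, 41.5, 59.8 and 79.8 without auxin, a log2 fold change of 1.76 ± 0.23 (limma adjusted p = 2.3e-06). *sdz-14* had 143, 98.9, 110.4 and 137 in RAGA-1::AID Somatic auxin, against 22.2, 28.6, 31.1 and 51.4 without auxin, and rose by 1.90 ± 0.28 on the log2 scale (limma adjusted p = 1.1e-05). In both genes each auxin library exceeded each control library.

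The neighbours *sdz-9* and *sdz-10* both rose. *sdz-9* had 114, 69.1, 107 and 121 in RAGA-1::AID Somatic auxin, against 33.3, 24.9, 39.4 and 54.1 without auxin, a log2 fold change of 1.43 ± 0.21 (limma adjusted p = 1.0e-05). *sdz-10*, at a lower level, had 49.8, 17.6, 33.6 and 38.8 in RAGA-1::AID Somatic auxin, against 11.1, 4.61, 8.37 and 9.47 without auxin, and rose by 1.90 ± 0.29 on the log2 scale (limma adjusted p = 1.4e-05). In both, replicate 2 was the lowest of the auxin libraries and still lay above all 4 controls.

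*sdz-18* had 22.9, 29.8, 35.7 and 27.7 in RAGA-1::AID Somatic auxin, against 3.18, 8.30, 9.56 and 9.47 without auxin, with a log2 fold change of 1.88 ± 0.27 (limma adjusted p = 9.9e-06). *sdz-33* had 89.7, 52.8, 69.4 and 105 in RAGA-1::AID Somatic auxin, against 15.9, 13.8, 22.7 and 36.5 without auxin (1.84 ± 0.28, limma adjusted p = 1.7e-05). *sdz-16* had 34.9, 46.1, 54.7 and 55.5 in RAGA-1::AID Somatic auxin, against 9.53, 10.2, 9.56 and 18.9 without auxin (1.94 ± 0.29, limma adjusted p = 1.6e-05). None of these 3 genes had overlapping groups.

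*sdz-4* and *sdz-5*, both called, shared their high and low libraries. *sdz-4* had 88.7, 56.9, 74.6 and 94.3 in RAGA-1::AID Somatic auxin, against 14.3, 15.7, 17.9 and 37.9 without auxin (log2 fold change 1.91 ± 0.31, limma adjusted p = 3.2e-05). *sdz-5* had 74.7, 48.8, 55.7 and 103.999 in RAGA-1::AID Somatic auxin, against 12.7, 14.8, 17.9 and 33.8 without auxin (1.83 ± 0.29, limma adjusted p = 2.7e-05). In both, replicate 4 was the highest library of its group, with and without auxin. *sdz-28* had 312, 184, 230.2 and 366 in RAGA-1::AID Somatic auxin, against 69.9, 84.0, 93.2 and 196 without auxin (1.36 ± 0.25, limma adjusted p = 0.00014). It was the only called gene with overlapping groups, because control replicate 4 lay above auxin replicate 2.

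*sdz-1* and *sdz-11* would not have passed the filter without the RAGA-1::AID Somatic auxin libraries, where they are high, so their calls carry a direction fixed by that filter. *sdz-1* had 22.9, 14.9, 13.7 and 15.3 in RAGA-1::AID Somatic auxin, against 1.59, 1.85, 0 and 0 without auxin. These were 58 reads against 3 reads, a ratio of 18.6 with a 95% counting interval of 6.07 to 93.0 (exact, Clopper-Pearson), which covers counting error only. Its fitted log2 fold change of 3.40 ± 0.47 (limma adjusted p = 5.0e-06) ran between 2.09 and 4.23 over the alternatives. *sdz-11* had 15.9, 16.3, 25.2 and 22.2 in RAGA-1::AID Somatic auxin, against 0, 1.85, 4.78 and 9.47 without auxin (2.50 ± 0.46, limma adjusted p = 0.00014). *sdz-19* would not have passed without these libraries either, with 3 RAGA-1::AID Neuronal auxin libraries and 1 RAGA-1::AID Somatic auxin library at 10 or more. With *sdz-1*, *sdz-11* and *sdz-19* set aside, 14 of the other 24 genes were called higher, at a median log2 fold change of 0.98. Of the other called genes, *sdz-26* had a log2 fold change of 1.01 ± 0.21 and *sdz-21* one of 0.86 ± 0.21.

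**Figure D2:**
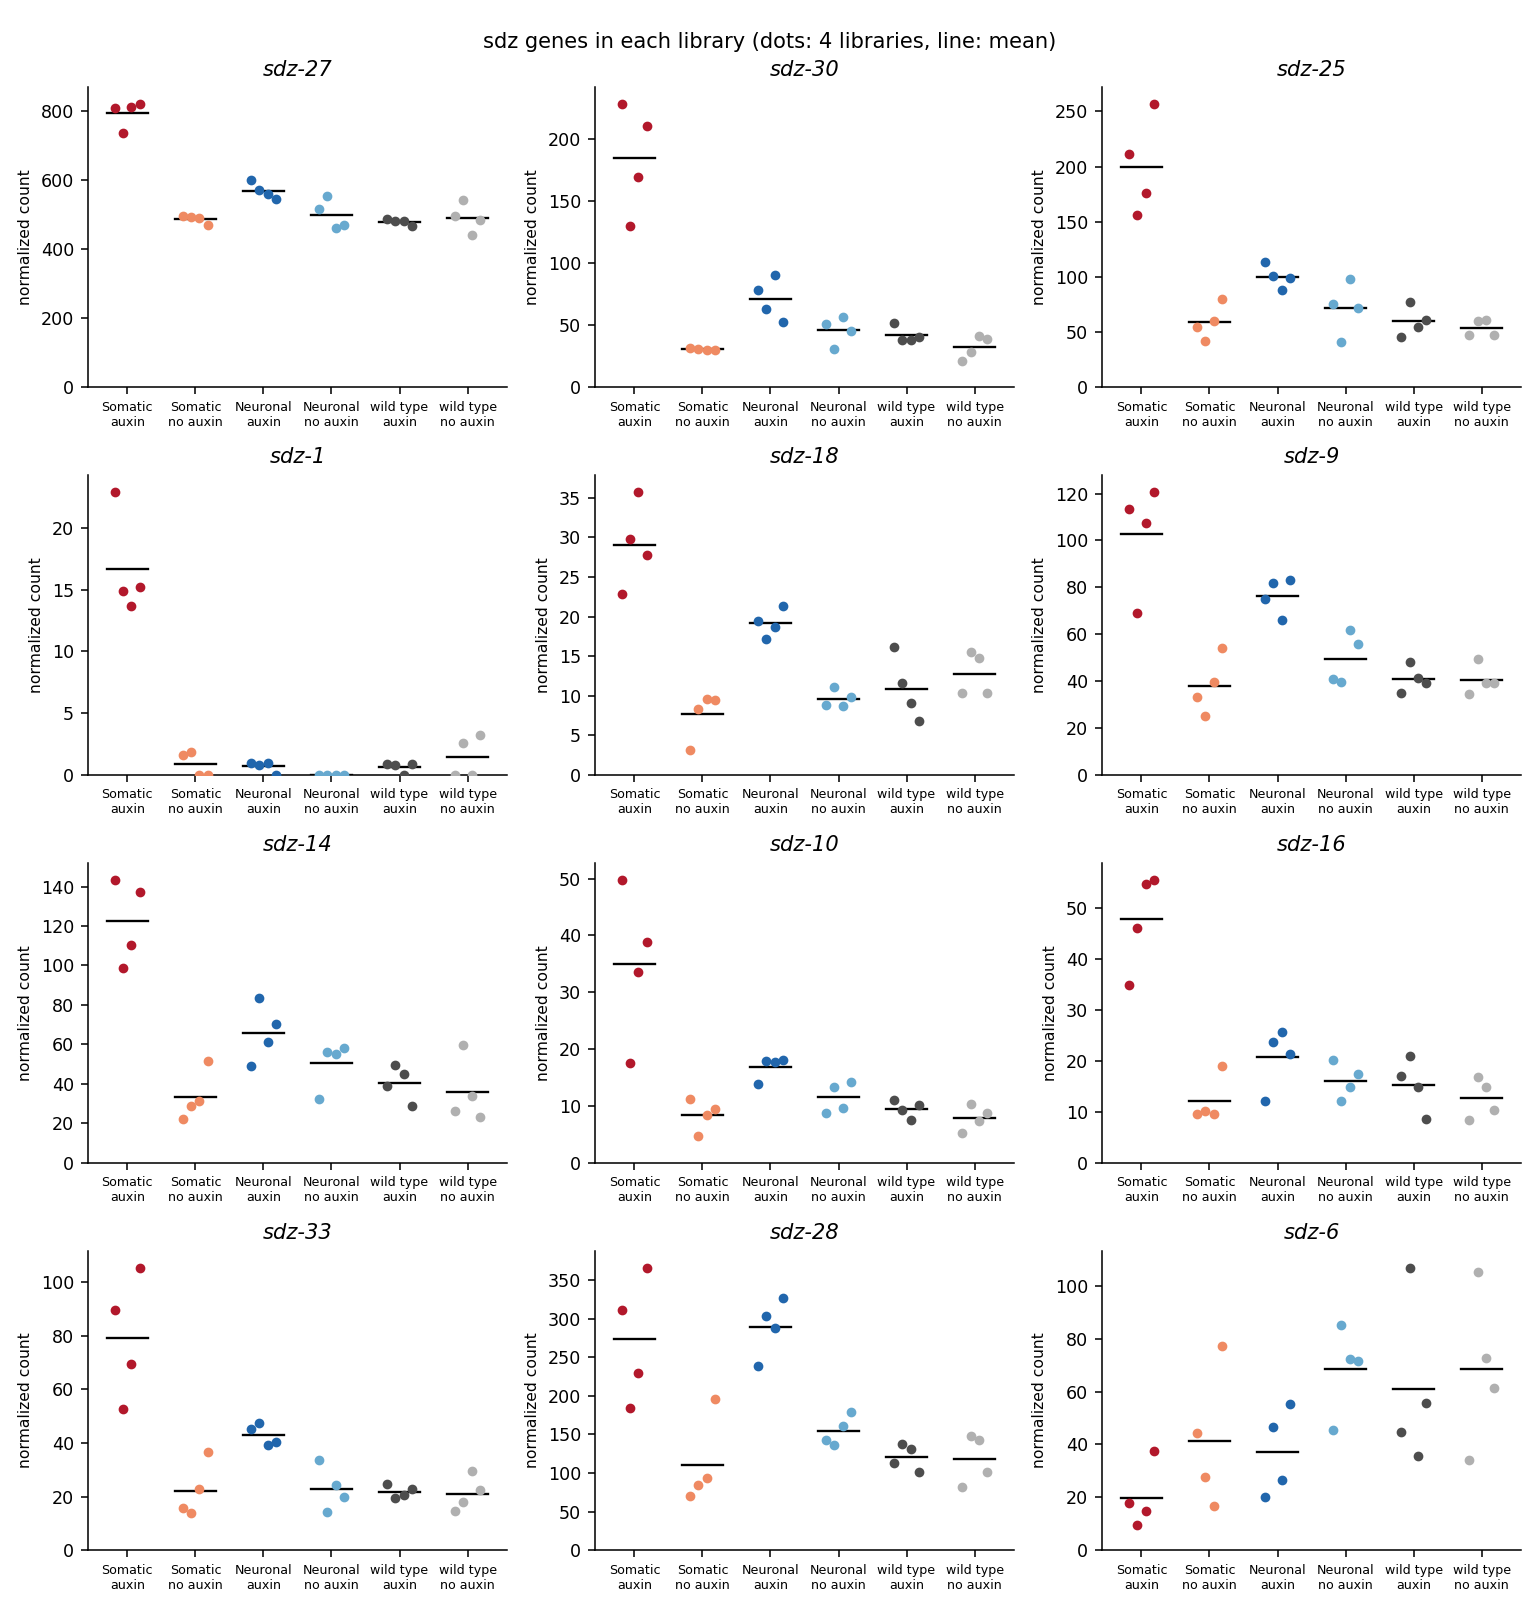
Normalized counts (y axis, linear from 0) of 12 sdz genes in each library of the 6 groups (x axis), with dots for the 4 libraries and a line for their mean. The RAGA-1::AID Somatic auxin dots of sdz-30 lie between 130.0 and 228, above all its other libraries, while those of sdz-6 lie between 9.48 and 37.4.

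Reads of the 5 untested genes were too few for a test. *sdz-13* had 34 reads over the 4 RAGA-1::AID Somatic auxin libraries and 2 over the 4 without auxin, a ratio of 16.4 with a 95% counting interval of 4.20 to 141. *sdz-23* had 13 reads in RAGA-1::AID Somatic auxin and 0 without auxin, at least 4.17-fold higher against a floor of 3 reads over the group. *sdz-20* had 10 reads in RAGA-1::AID Somatic auxin and 0 without auxin, at least 3.21-fold higher against the same floor. *sdz-32* had 22 reads against 9 reads, and *sdz-35* had 9 against 10.

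Not every member moved with the class. Fitted changes were below 0 after somatic AID for *sdz-6*, *sdz-36* and *sdz-24*, and none of these passed the threshold. *sdz-6* had 17.9, 9.48, 14.7 and 37.4 in RAGA-1::AID Somatic auxin, against 44.5, 27.7, 16.7 and 77.1 without auxin, with overlapping groups (log2 fold change -0.98 ± 0.46, limma adjusted p = 0.082). *sdz-36* had 21.9, 31.2, 22.1 and 25 in RAGA-1::AID Somatic auxin, against 55.6, 30.5, 32.3 and 39.2 without auxin (-0.61 ± 0.21, limma adjusted p = 0.021), and auxin replicate 2 lay just above the lowest control. Under quantile normalization *sdz-36* was called lower, at -0.98. *sdz-24* had 5.98, 13.5, 4.21 and 2.77 in RAGA-1::AID Somatic auxin, against 3.18, 15.7, 14.3 and 8.11 without auxin (-0.57 ± 0.54, limma adjusted p = 0.40). The other 8 tested genes that were not called had log2 fold changes of 0.29 to 1.14, the highest being *sdz-19* (limma adjusted p = 0.024) and *sdz-15* at 0.96 (limma adjusted p = 0.014).

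After neuronal AID, no *sdz* gene passed the threshold, although 7 genes had auxin libraries wholly above their controls. The count was 0 of 27 by limma, by edgeR and by DESeq2, beside 0.35% of all tested genes called higher and 0.0913% called lower. An unadjusted limma p under 0.05 was found for 10 of 27 genes, against 14.5% of all genes. The median log2 fold change was 0.39, against 0.00 over all genes, and 21 of 27 lay above 0, against 49.7% of all genes. *sdz-1*, with 3 reads over the 4 auxin libraries and 0 without auxin, allows no fold, and with its difference set to 0 the median was 0.31. In 7 genes all 4 RAGA-1::AID Neuronal auxin libraries lay above all 4 without auxin (*sdz-5*, *sdz-9*, *sdz-18*, *sdz-19*, *sdz-26*, *sdz-28* and *sdz-33*), and in none below, where 5.96% of all genes were above and 4.81% below. *sdz-19* passed the filter only through auxin libraries of the AID strains, so its place among the 7 was favoured by the filter.

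The values of these genes show the size of the neuronal differences. *sdz-28* had 238, 304, 288 and 327 in RAGA-1::AID Neuronal auxin, against 143, 136, 161 and 179 without auxin (log2 fold change 0.90 ± 0.25, limma adjusted p = 0.074). It was called in a fit of these 8 libraries alone (limma adjusted p = 0.0090). *sdz-33* had 45.3, 47.4, 39.4 and 40.5 in RAGA-1::AID Neuronal auxin, against 33.6, 14.4, 24.4 and 19.8 without auxin (0.94 ± 0.28, limma adjusted p = 0.097). *sdz-18* had 19.4, 17.1, 18.7 and 21.3 in RAGA-1::AID Neuronal auxin, against 8.81, 11, 8.71 and 9.89 without auxin (0.93 ± 0.27, limma adjusted p = 0.092). None of the 3 had overlapping groups, and none passed the threshold over all genes. *sdz-6* was at 20.3, 46.5, 26.6 and 55.4 in RAGA-1::AID Neuronal auxin, against 45.6, 85.0, 72.3 and 71.7 without auxin, with overlapping groups (-0.94 ± 0.46).

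The neuronal values of the genes called after somatic AID lay above 0. Without *sdz-1*, which allows no fold there, all 15 had a log2 fold change above 0 after neuronal AID, from 0.06 to 0.95 with a median of 0.54, and 5 of the 11 genes not called did. *sdz-11*, 1 of the 15, passed the filter only with the RAGA-1::AID Somatic auxin libraries. In wild type, 11 of the 16 called genes lay above 0, with a median of 0.11. Across the 27 genes, the somatic and neuronal log2 fold changes had a Pearson r of 0.585 and a Spearman rho of 0.567. Over the 23 genes that passed the filter on no auxin libraries alone, r was 0.716 and rho 0.627. These are correlations across genes, which share libraries and depth within each strain and are not independent replicates. The 2 comparisons have no library in common. These counts and correlations were not taken over all genes, so whether they are particular to the *sdz* class was not tested.

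Auxin alone left no called change in the class. In wild type 0 of 27 genes were called by limma, edgeR or DESeq2, as was 0% of all tested genes, and none had an unadjusted limma p under 0.05, against 2.3% of all genes. The median log2 fold change was 0.05, with 18 of 27 above 0, against 49.9% of all genes. No gene had all 4 auxin libraries above or below all 4 controls, where 0.951% of all genes were above and 0.776% below. *sdz-30* had 51.7, 37.9, 38.1 and 40.6 in wild type auxin, against 20.8, 28.5, 41.1 and 39.0 without auxin, and *sdz-27* had 486, 482, 483 and 466, against 498, 542, 441 and 485. The groups overlapped in both genes. The widest difference was *sdz-24*, at 16.1, 25.5, 28.2 and 5.08 in wild type auxin, against 3.12, 7.79, 12.6 and 10.4 without auxin (0.96 ± 0.54), again with overlap.

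**Figure D3:**
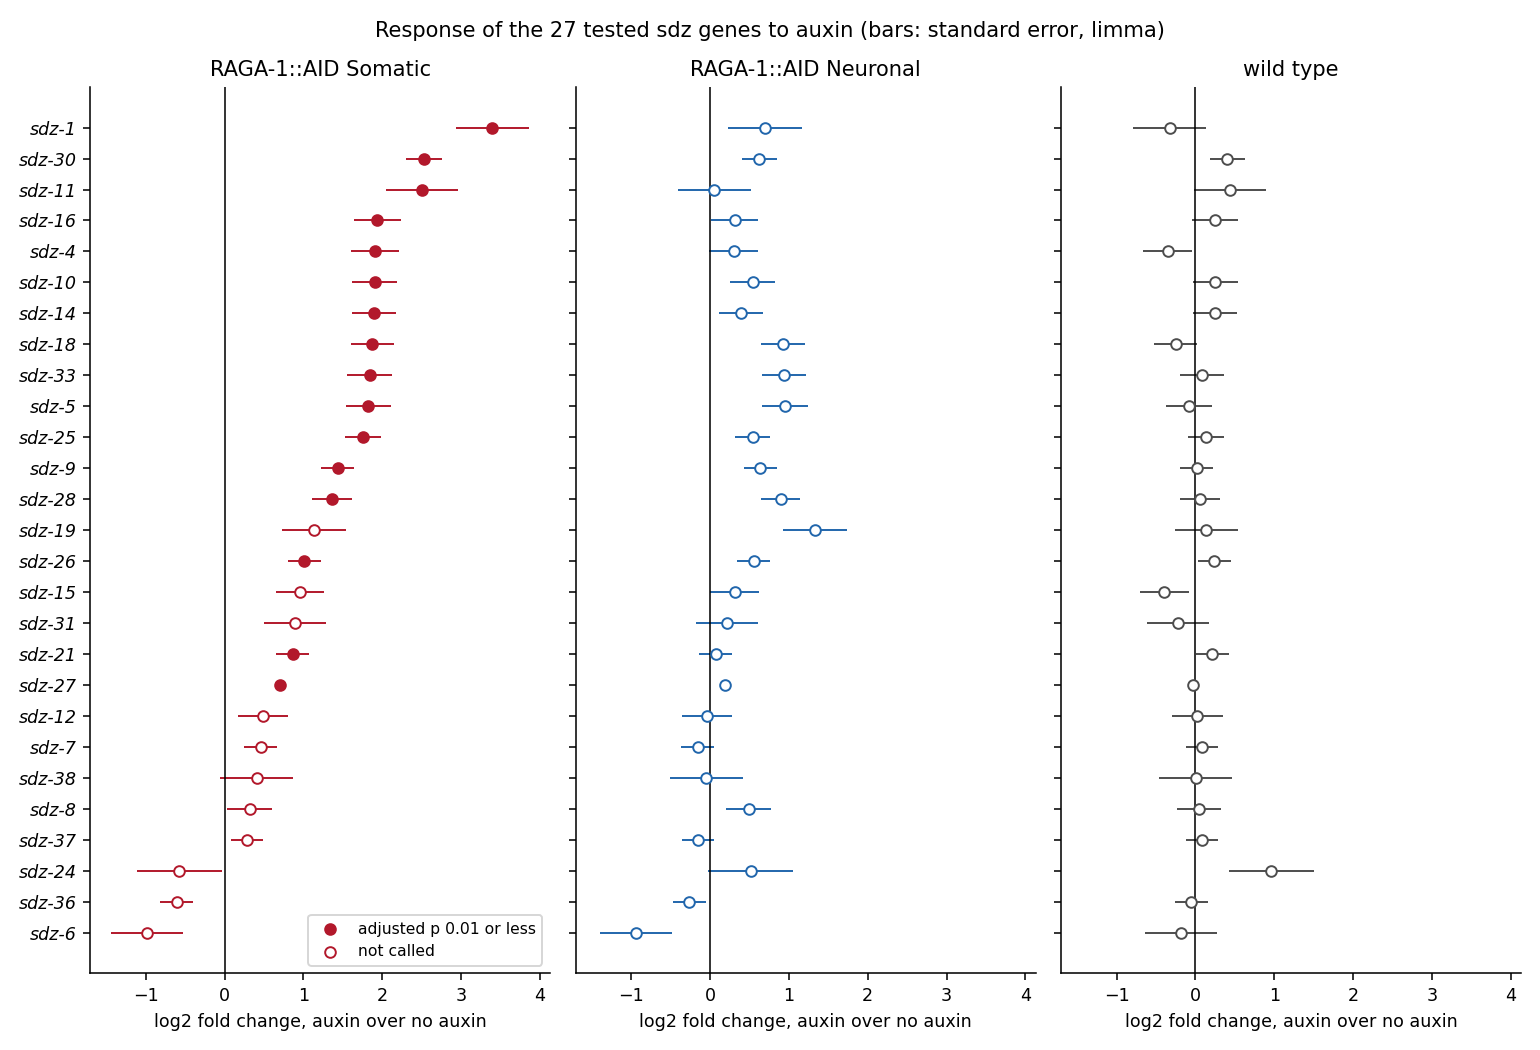
Log2 fold change of auxin over no auxin (x axis) for each of the 27 tested sdz genes (rows, ordered by the somatic value) in the Somatic, Neuronal and wild type strains; bars are limma standard errors and filled points passed an adjusted p of 0.01. Filled points occur in 16 genes of the somatic panel, from 0.71 for sdz-27 to 3.40 for sdz-1, and in none of the other panels.

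No *sdz* gene was called between strains in the absence of auxin. Without auxin, 0 of 27 genes were called in RAGA-1::AID Somatic against wild type, beside 0.0228% of all genes higher and 0.19% lower, and 2 had an unadjusted limma p under 0.05, against 9.77% of all genes. Between RAGA-1::AID Neuronal and wild type without auxin, 0 of 27 were called, beside 0% of all genes higher and 0.0076% lower, and 3 had an unadjusted p under 0.05, against 4.97%. edgeR and DESeq2 also called none in either baseline comparison. The RAGA-1::AID Somatic median was -0.18, with 8 of 27 genes above 0, against 49.8% of all genes, and the RAGA-1::AID Neuronal median was 0.27, with 20 of 27 above 0, against 50.3%. All 4 RAGA-1::AID Somatic libraries lay below all 4 wild type libraries for 1 gene, *sdz-18*, and above for 0, beside 2.53% of all genes below and 1.62% above. All 4 RAGA-1::AID Neuronal libraries lay above all 4 wild type libraries for 1 gene, *sdz-11*, and below for 0, beside 1.43% above and 2% below. The RAGA-1::AID Somatic no auxin libraries enter both the baseline and the somatic response.

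Whether the responses differ between strains was tested directly. The auxin response was larger in RAGA-1::AID Somatic than in wild type for 13 of 27 genes and smaller for none, beside 7.11% of all genes larger and 9.67% smaller. Without *sdz-1*, *sdz-11* and *sdz-19*, it was larger for 12 of 24 genes. The median difference was 1.31 on the log2 scale. The 13 were the 16 genes of the somatic response without *sdz-21*, *sdz-26* and *sdz-11*, the last of which missed the threshold (2.06 ± 0.65, limma adjusted p = 0.021). Against RAGA-1::AID Neuronal, the somatic response was larger for 7 of 27 genes and smaller for none, beside 5.22% larger and 6.02% smaller over all genes. Without *sdz-1*, *sdz-11* and *sdz-19* it was larger for 5 of 24 genes. Those 7 were *sdz-30* (difference 1.90 ± 0.32, limma adjusted p = 0.00027), *sdz-27* (0.51 ± 0.08, limma adjusted p = 0.00024), *sdz-1*, *sdz-11*, *sdz-14*, *sdz-16* and *sdz-25*. For *sdz-28*, high in both strains on auxin, the test gave a difference of 0.47 ± 0.36 that did not pass (limma adjusted p = 0.37). The Neuronal and wild type responses differed for 0 of 27 genes, beside 0.0076% of all genes in each direction, with 7 at an unadjusted limma p under 0.05, against 6.62%, and 0 by edgeR and by DESeq2.

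The count of 7 holds calls close to the threshold. It fell to between 2 and 4 when any 1 of 14 of the 16 libraries was left out. The count stayed at 7 in the remaining fits, but the genes changed. Without RAGA-1::AID Somatic no auxin replicate 4, *sdz-1* was lost and *sdz-4* gained. Without RAGA-1::AID Somatic auxin replicate 2, *sdz-11* and *sdz-16* were lost and *sdz-4* and *sdz-10* gained. Only *sdz-27* and *sdz-30* kept the call in each of these 16 fits. The fitted differences of the genes that lost it stayed above 0, as at 1.4 to 1.85 for *sdz-16* and 1.05 to 1.46 for *sdz-25*. With replicates 1 and 4 alone 1 gene was called, with replicates 2 and 3 alone 0, and under quantile normalization 3. The comparison with wild type gave 10 to 14 genes when 1 library was left out, 3 and 1 in the same replicate pairs and 7 under quantile normalization.

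**Figure D4:**
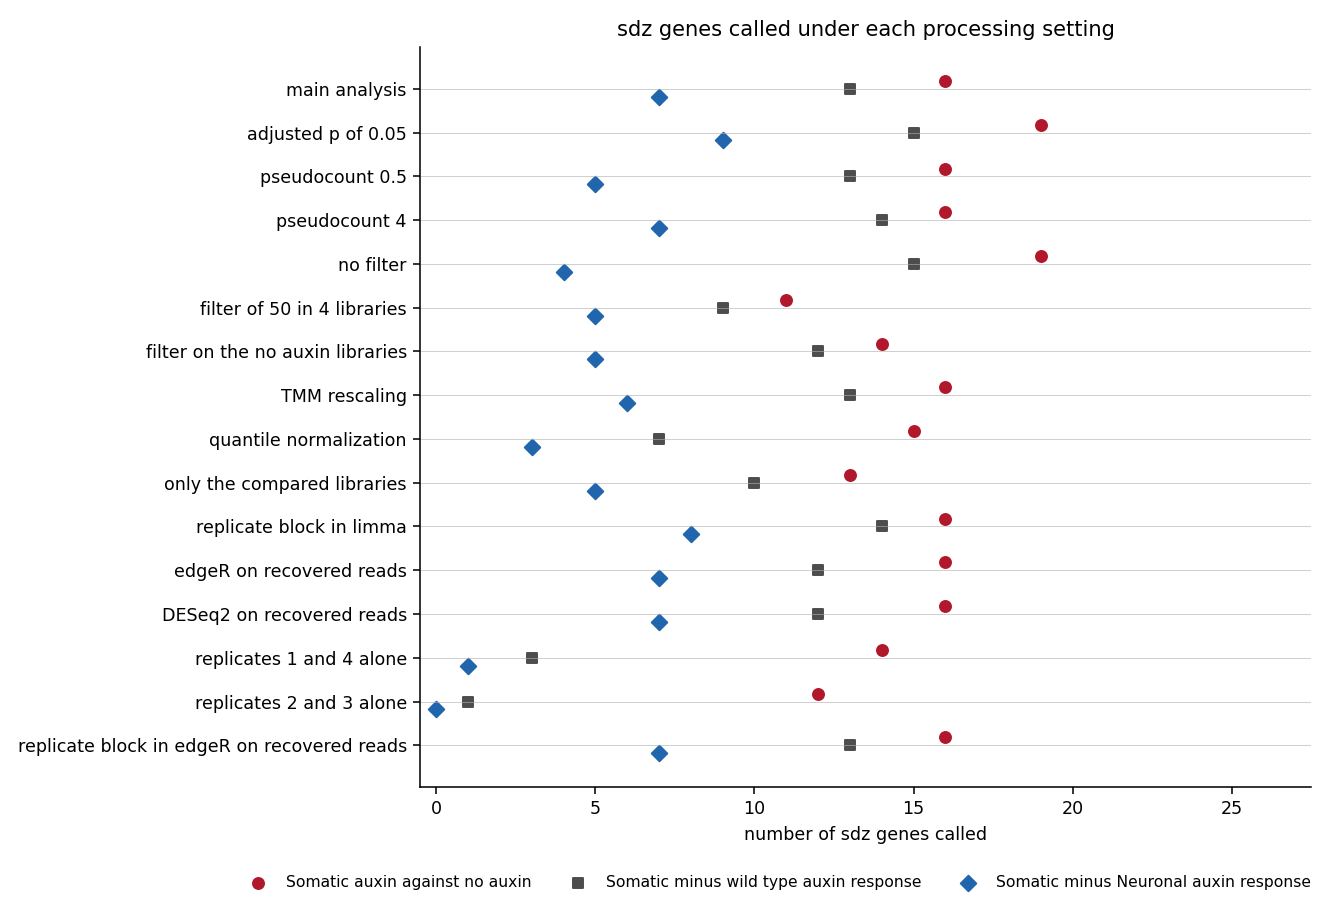
Number of sdz genes called (x axis) under each processing setting (rows) for the somatic response to auxin and for its difference from the wild type and Neuronal responses. The somatic count lies between 11 and 19, the difference from wild type between 1 and 15 and the difference from Neuronal between 0 and 9.

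Members tended to be high or low together within a library. Wild type no auxin replicate 1 was the lowest of its 4 libraries for 18 of the 27 tested genes, against 26.3% of all tested genes. RAGA-1::AID Somatic auxin replicate 2 was the lowest for 17 of 27, against 27.8% of all genes. RAGA-1::AID Somatic no auxin replicate 4 was the highest for 14 of 27, against 25.9%. Without that library the somatic count was 18, with *sdz-19* and *sdz-31* added, and without auxin replicate 2 it was 17, with *sdz-15* added.

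The gene for SKN-1 itself was not called after somatic AID. *skn-1* averaged 7073 ± 554 in RAGA-1::AID Somatic auxin and 7449 ± 180 without auxin (SD, n = 4 each), a log2 fold change of -0.08 ± 0.04 (limma adjusted p = 0.11). Of a list of 10 genes for SKN-1 and its regulators, 1 rose and 3 fell, beside 16% and 19.6% of all tested genes, with a median of -0.08. The split was 2 higher and 2 lower with edgeR's TMM scaling and 3 higher and 1 lower under quantile normalization. Leaving out 1 library gave 2 to 6 calls in this list, with 2 when RAGA-1::AID Somatic no auxin replicate 4 was left out. The rise was in *sgk-1*, a kinase of the mTORC2 branch, at 486 ± 64 in RAGA-1::AID Somatic auxin and 285 ± 37.2 without auxin (0.77 ± 0.12, limma adjusted p = 2.4e-05). *pmk-1* fell by 0.22, *wdr-23* by 0.15 and *xrep-4* by 0.09 on the log2 scale. Of 13 adult stress and detoxification targets, 11 were tested, 1 rose and 1 fell, with a median of -0.03. Neither call is firm, since leaving out any 1 of the 8 libraries left 0 or 1 call in this list and quantile normalization left 0. *gst-13*, a glutathione S-transferase, had a log2 fold change of 0.68 ± 0.20 (limma adjusted p = 0.0070) and *gst-7* one of -0.13 ± 0.04 (limma adjusted p = 0.0073). *gcs-1*, which makes the first step of glutathione synthesis, averaged 3091 ± 146 in RAGA-1::AID Somatic auxin and 3156 ± 37.2 without auxin, and *gst-4* averaged 466 ± 83.5 and 463 ± 198 in those groups. No gene of either list was called after neuronal AID, where the medians were -0.02 and 0.09.

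Some other genes listed for the embryo rose after somatic AID. RNA of whole worms does not show whether their reads came from embryos or from adult tissue such as the gut. Of 8 genes for endoderm and mesoderm specification, 4 were tested and 2 rose after somatic AID, beside 16% of all tested genes. *ceh-51* passed the filter only through the RAGA-1::AID Somatic auxin libraries, and without it 1 of 3 rose, with a median log2 fold change of 0.60. *ceh-51*, a homeobox gene of the early mesoderm, averaged 41.2 ± 4.0 in RAGA-1::AID Somatic auxin and 1.8 ± 2.1 without auxin (4.18 ± 0.44, limma adjusted p = 1.5e-07), and it was between 0.8 and 5.5 in each library of the Neuronal and wild type groups. *elt-7*, a GATA factor of the gut, averaged 163 ± 14.6 in RAGA-1::AID Somatic auxin and 93.9 ± 11.9 without auxin (0.79 ± 0.11, limma adjusted p = 5.2e-06). *elt-2*, the GATA factor that keeps gut identity in the adult, averaged 141 ± 22.5 and 94.3 ± 26.1 in those groups and missed the threshold (limma adjusted p = 0.025). Of the direct SKN-1 targets, *med-1* and *med-2* averaged under 1 normalized count in every group. *end-1*, which was not tested, averaged 17.2 ± 9.99 in RAGA-1::AID Somatic auxin and 0.9 ± 1.3 without auxin, and *end-3* averaged 9.7 ± 2.1 and 8.7 ± 4.1.

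Of 13 other early zygotic transcripts, 9 were tested and 3 rose after somatic AID, beside 16% of all tested genes, with a median of 0.28. The count was 1 without RAGA-1::AID Somatic no auxin replicate 1, without no auxin replicate 3 or without auxin replicate 1. *vet-6* averaged 780 ± 149 in RAGA-1::AID Somatic auxin and 185 ± 55.5 without auxin (2.09 ± 0.18, limma adjusted p = 8.6e-09). *pes-10*, long used as a marker of the first zygotic transcription, rose by 0.76 ± 0.22 (limma adjusted p = 0.0072) and *vet-1* by 0.65 ± 0.18 (limma adjusted p = 0.0051). Summed levels of this list were 2756 to 3609 in RAGA-1::AID Somatic auxin and 1923 to 2507 without auxin. They were 2591 to 3020 in RAGA-1::AID Neuronal auxin and 2366 to 2541 without auxin, and neither pair of groups overlapped. The summed endoderm and mesoderm genes were 197 to 228 in RAGA-1::AID Neuronal auxin and 215 to 251 without auxin, with overlap. After neuronal AID no gene of either embryo list was called, with medians of 0.12 and 0.16, and *vet-6* averaged 386 ± 30.6 in RAGA-1::AID Neuronal auxin and 260 ± 43.6 without auxin (0.58 ± 0.18, limma adjusted p = 0.097).

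Oocyte and maternal transcripts moved the other way. Of 16 such genes, all tested, 14 fell after somatic AID and none rose, beside 19.6% of all tested genes lower and 16% higher, with a median log2 fold change of -0.18. *oma-2*, needed for oocyte maturation, fell by 0.27 on the log2 scale, *rme-2*, the yolk receptor, by 0.24 and *egg-2*, of the oocyte surface, by 0.29. Their summed level was 401796 to 426901 in RAGA-1::AID Somatic auxin, against 469707 to 478963 without auxin. The sum was also lower after neuronal AID, at 446451 to 456641 in RAGA-1::AID Neuronal auxin, against 466368 to 469646 without auxin. These groups did not overlap, although no gene of the list was called there and the median was -0.05. Some adult tissue markers were called as well after somatic AID, beside the same shares of all genes. Summed intestine markers were 32042 to 40995 in RAGA-1::AID Somatic auxin, against 18473 to 20765 without auxin, with 3 of 5 called higher, and summed body wall muscle markers were 27490 to 29415, against 21400 to 23623, with 2 of 3 called higher and *myo-3* lower. After neuronal AID the intestine sum was 21388 to 26269 in RAGA-1::AID Neuronal auxin, against 19009 to 22315 without auxin, with overlapping groups. There 1 of the 5 intestine markers was called higher, beside 0.35% of all tested genes, and the median was 0.18. It was *ges-1*, a gut esterase, which rose by 0.54 ± 0.10 (limma adjusted p = 0.0078). In the somatic comparison, summed neuron markers were 5946 to 6255, against 5323 to 5486, with 2 of 5 called higher and 1 lower. Summed epidermis markers were 2431 to 2769, against 961 to 2321, with 0 of 2 tested markers called, and summed germline markers were 50384 to 53534, against 54556 to 55659, with 1 of 3 called lower. The germline sum was 51325 to 52934 in RAGA-1::AID Neuronal auxin, against 53580 to 55606 without auxin, with none called. All 3 germline markers (*gld-1*, *glh-1* and *pgl-1*) are also among the 16 oocyte and maternal genes, so these 2 lists are not separate. The part of embryo, oocyte and tissue content in the rise of the *sdz* genes was not tested.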

How the data were processed

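RNA of 24 whole-worm samples was selected for poly(A) and sequenced as paired ends. The authors quantified transcripts with Salmon 1.4.0 against WBcel235, summed these to genes and scaled the libraries with DESeq2 1.34.0 (R 4.1.2), after quality checks with FastQC 0.11.5, STAR 2.7.0 and MultiQC (the submitters' processing notes and the study's methods). Each deposited value is a signal, the count of a gene divided by its library's size factor. All values were whole multiples, within 0.01, of the smallest value above 0 in each library, so whole reads (100% of values) came from dividing by it. Symbols were matched by gene ID for 19793 of 21982 genes, and positions come from Ensembl release 115 on WBcel235.

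The 13150 genes at 10 normalized counts or more in 4 or more libraries were fitted with limma 3.58.1 (R 4.3.3, intensity trend, two-sided) on log2(normalized count + 1), with a mean for each of 6 groups. Fold changes are on that scale, which understates changes of low genes. Calls are at a Benjamini-Hochberg adjusted p of 0.01 over all tested genes. The fit was also run on simulated counts with 1 fixed spread for all genes and no replicate effect. That run does not show how genes with a larger spread fare. edgeR 4.0.16 and DESeq2 1.42.0 were run on recovered reads.

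The members, lists and tests were chosen with earlier results of these data known, including the study's mention of the class. Library values are printed for the 10 *sdz* genes with the smallest adjusted p after somatic AID, the 3 with the highest mean, those called in any other comparison and the 3 with the lowest somatic fold change. Genes named beyond that rule were chosen after their values were seen.

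Same-numbered libraries were checked for pairing. Their deviations from the group means correlated at 0.079 to 0.238 in RAGA-1::AID Somatic, 0.093 to 0.339 in RAGA-1::AID Neuronal and 0.103 to 0.231 in wild type. Only in wild type did all numbers pass the 0.1 used for pairing. RAGA-1::AID Somatic replicate 1 and RAGA-1::AID Neuronal replicate 4 fell just below it. Each auxin library still correlated best with the control of its own number, so this cut does not show that the AID strains are unpaired. The main fit ignores any such pairing, and fits with a replicate block are given below. Figures were drawn with matplotlib 3.10.9.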

Additional observations from a re-analysis of the deposited data

Results flagged for a closer look

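The response to auxin differed between strains for several *sdz* genes. Somatic minus Neuronal differences on the log2 scale were 2.7 for *sdz-1*, 2.45 for *sdz-11*, 1.90 for *sdz-30*, 1.62 for *sdz-16*, 1.5 for *sdz-14*, 1.22 for *sdz-25* and 0.51 for *sdz-27* (limma, adjusted p between 0.00024 and 0.0099). Somatic minus wild type differences were 3.73 for *sdz-1*, 2.26 for *sdz-4*, 2.12 for *sdz-18*, 2.12 for *sdz-30*, 1.91 for *sdz-5*, 1.75 for *sdz-33*, 1.69 for *sdz-16*, 1.65 for *sdz-10*, 1.65 for *sdz-14*, 1.63 for *sdz-25*, 1.42 for *sdz-9*, 1.31 for *sdz-28* and 0.74 for *sdz-27* (limma, adjusted p between 2.6e-06 and 0.0085). Both sets use the RAGA-1::AID Somatic libraries. Only *sdz-27* and *sdz-30* kept the Somatic minus Neuronal call in all 16 fits that left out 1 library. *sdz-1* and *sdz-11* passed the filter on low values only with the RAGA-1::AID Somatic auxin libraries, so the direction of their differences was favoured by it.

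In 6 of 102 groups of 4 libraries, 1 library stood apart from the other 3. This is close to the 1 in 20 that chance gives, so the cases are listed as description only. *sdz-27* was at 738 in RAGA-1::AID Somatic auxin replicate 2, against 811 to 821 in the others. *sdz-16* was at 18.9 and *sdz-4* at 37.9 in RAGA-1::AID Somatic no auxin replicate 4, against 9.53 to 10.2 and 14.3 to 17.9. *sdz-10* was at 13.9 in RAGA-1::AID Neuronal auxin replicate 1, against 17.7 to 18.1, and *sdz-14* at 32 in RAGA-1::AID Neuronal no auxin replicate 1, against 54.8 to 58.1. *sdz-1* was at 0 in wild type auxin replicate 3, against 0.774 to 0.847, which is 1 read in each of the other libraries.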

How the results depend on the processing

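The somatic count of 16 was 11 with a filter of 50 normalized counts, 12 with replicates 2 and 3 alone, 13 in a fit of the compared libraries, 14 with the filter on no auxin libraries, 15 under quantile normalization (14 higher, 1 lower), 19 without a filter and 19 at an adjusted p of 0.05 (18 higher, and *sdz-36* lower). Leaving out 1 library gave 16 to 18 for it, 0 to 0 for the Neuronal, wild type, baseline and Neuronal minus wild type counts, 2 to 7 for Somatic minus Neuronal and 10 to 14 for Somatic minus wild type. The Neuronal count was 1 in a fit of the compared libraries (*sdz-28*). Somatic minus Neuronal was 4 without a filter, 3 under quantile normalization, 1 with replicates 1 and 4 alone and 0 with replicates 2 and 3 alone. Somatic minus wild type was 7, 3 and 1 under the last 3 of these. The cause was not tested, except that smaller fits and stricter filters hold fewer libraries or genes. With the replicate block in limma, the counts were 16 for Somatic, 0 for Neuronal, 8 for Somatic minus Neuronal and 14 for Somatic minus wild type, and with the replicate block in edgeR, an alternative chosen after seeing the data, 16, 0, 7 and 13. Every library of an auxin pair correlated best with its own number. The study's methods put the replicates on separate days and thaws, so a number may mark a shared day. The labels do not say whether it does, and the main fit has no replicate term. The block changed no call in wild type.

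No fold change of a named gene reversed. Over 14 alternatives other than leaving out a library, the 16 somatic calls were lost 18 times, in 6 alternatives and counting genes removed by a filter, and leaving out 1 library lost 0. Somatic minus Neuronal lost calls 34 times over the 14 alternatives and 59 times over the 16 fits without 1 library, and Somatic minus wild type 39 and 19 times. Quantile normalization lowered the somatic median to 0.71 and the Neuronal median to 0.17, and the filter of 50 raised them to 1.60 and 0.55. The median of all genes in the somatic comparison was -0.05 under quantile normalization and 0.01 without it. Searches for a SKN-1 site in promoters and a comparison of protein sequences were planned and were not run, because no sequence was used here. Low counts limit *sdz-1*, *sdz-11* and the 5 untested genes.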
